A study of Mus musculus with 2 samples.

Results

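Car1-dominant erythroid-biased progenitors were examined in Kit-positive mouse marrow, in a control library and in a library labelled Utx deleted (below, the Utx-deleted library). They were chosen on measured values. A member was a kept cell barcode with at least 5 UMIs of Car1, no more Pf4 than Car1, at most 4 UMIs of the basophil proteases Prss34 and Mcpt8 together, and under 1% of its gene UMIs in 6 neutrophil granule genes. A UMI (unique molecular identifier) counts 1 captured molecule. The rule gave 131 members of 14068 kept barcodes, 112 of 7098 in the control library and 19 of 6970 in the Utx-deleted library. Kept barcodes had at least 500 detected genes, under 10% mitochondrial UMIs and no pair of similarly high hashtag counts.

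Each group was 1 library of CD45.2+ Kit+ bone marrow, and the labels give 10 weeks after transplantation as its age but not the number, strain or sex of the mice. They name no allele, Cre driver or promoter for the Utx deletion, and nothing else that the control cells carry. Utx is another name of Kdm6a, whose product removes methyl groups from lysine 27 of histone H3 and belongs to the MLL3 and MLL4 complexes named in the series title. RNA and 13 surface antibody tags were counted in the same cells, together with 2 hashtags, antibodies that mark whole cell suspensions before pooling. What a hashtag stands for is not in the labels, so its cells describe the spread inside a library and are not replicates. A single library per group allows no test of the condition. Every interval given here is a 95% counting interval, which does not cover differences between animals or between cells.

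Red blood cells arise from stem cells through megakaryocyte-erythroid progenitors and then through erythroid-committed progenitors, which still carry Kit. GATA1 and KLF1 are transcription factors that switch on erythroid genes, while GATA2 acts earlier and gives way to GATA1 as cells mature. Car1, which encodes carbonic anhydrase 1, is an early erythroid gene, and Aqp1 encodes the water channel of the red cell membrane. Haemoglobin genes and the anion exchanger gene Slc4a1 come on strongly later, when Kit is being lost.

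To show the regulatory sequence in front of the genes that mark these cells, up to 150 bases before the start in the RefSeq promoter table (build GRCm38.p6) are printed 5′ to 3′; 3 of the 4 markers (all but Car1) had an entry. Klf1 lies on the plus strand (chr8:84901832-84901927), Gata1 on the minus strand (chrX:7967911-7968060) and Aqp1 on the plus strand (chr6:55336149-55336298). The table's starts differ in part from those of GENCODE M21. For Klf1 the table's start lies 54 bases inside the GENCODE gene, and only the 96 bases before the gene are printed. For Gata1 it is the start of 1 GENCODE transcript, while another starts 10161 bases farther upstream, so the printed stretch lies inside the gene. For Aqp1 it lies 133 bases before the GENCODE start. Capitals mark matches, on either strand, to a GATA motif (AGATAA or TGATAA) and to a CACCC-box motif (CACACCC), kinds of element that GATA factors and KLF1 are known to bind. The motifs share no overlap in these windows.
Klf1: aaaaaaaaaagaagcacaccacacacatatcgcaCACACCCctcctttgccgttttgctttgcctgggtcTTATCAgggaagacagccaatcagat
Gata1: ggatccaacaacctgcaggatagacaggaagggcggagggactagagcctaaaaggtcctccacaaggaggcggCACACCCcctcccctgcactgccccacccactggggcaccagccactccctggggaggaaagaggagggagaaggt
Aqp1: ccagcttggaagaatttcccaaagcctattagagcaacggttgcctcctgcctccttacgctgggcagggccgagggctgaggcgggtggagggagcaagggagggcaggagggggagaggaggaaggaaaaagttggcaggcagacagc
Klf1 held a CACCC box at position -116 from the table's start and a GATA motif, read on the opposite strand, at position -80. Gata1 held a CACCC box at position -76, and the Aqp1 window held neither. Of all 32851 promoters in that source, each 300 bases long, 18.6% held the GATA motif and 7.95% the CACCC box. A match describes the letters only.

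Members carried erythroid transcripts that the rule did not use. Klf1 had a UMI in 93 of 112 control members and 13 of 19 members of the Utx-deleted library, Gata1 in 96 and 18, and Aqp1 in 103 and 11. All 3 genes were detected in 69.6% of control members (78 cells, interval 60.2 to 78.0%) and in 36.8% of the Utx-deleted members (7 cells, interval 16.3 to 61.6%). For scale, cells rich in neutrophil transcripts, which should lack Klf1, had a UMI of it in 0.306% and 0.113% of barcodes at median depths of 9903 and 9712 UMIs. Among members the shares were 83.0% and 68.4% at 23263 and 25277 UMIs. After every cell was thinned to 5000 UMIs, Klf1 was seen in 37.5% of control members (interval 28.5 to 47.1%) and 26.3% of Utx-deleted members (interval 9.15 to 51.2%). In the thinned neutrophil-rich cells it was seen in 0.145% and 0%, with 414 and 223 cells too shallow to thin. Thinned or not, the share of members with Klf1 lay above that background in both libraries.

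By these counts the members were early cells with little haemoglobin RNA. Slc4a1 had 0 UMIs in both libraries, Alas2, the erythroid first enzyme of heme synthesis, had 5 and 0 UMIs, and the alpha globin gene Hba-a1 had 2 and 0. With 3 counts as the floor, 0 UMIs allows up to 0.981 CPM (counts per 1000000 gene UMIs) in the control members and up to 5.39 CPM in the Utx-deleted members. Like the intervals, this floor and the folds drawn from it below cover the counting of UMIs and not differences between cells. The beta globin gene Hbb-bt had 14 UMIs in 8 control members and 5 UMIs in 1 Utx-deleted member. Kit itself was detected in 110 of 112 and 19 of 19 members, at 313 CPM and 311 CPM.

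Markers listed for other lineages were at 0 or in few members for some genes and widespread for others. The platelet factor gene Pf4 had 10 UMIs in 9 control members and 1 UMI in the Utx-deleted library, and Cd79a, Cd3e, Trac, Siglech, H2-Aa and C1qa had 0 in both. Widespread ones included Nkg7, listed for T and NK cells, found in 83.9% and 52.6% of members and in 87.3% and 77.3% of other progenitors. Mllt3, listed for stem and multipotent cells, was found in 83.9% and 94.7% of members, Itga2b, the megakaryocyte gene of CD41, in 42.0% and 36.8%, and the mast cell protease gene Cpa3 in 33.9% and 36.8%. Neutrophil granule genes were found in most members: S100a9 had a UMI in 112 of 112 and 19 of 19 members. The 6 granule genes of the rule made up a median of 0.114% and 0.132% of a member's UMIs, against 0.117% and 0.140% in all kept barcodes under 1%. Azurophil granule genes (Mpo, Elane, Prtn3 and Ctsg) were concentrated in 4 control members, which held 2087 UMIs of them. The mast cell receptor gene Ms4a2 had 57 UMIs in 4 of the 19 Utx-deleted members.

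Depth per cell was similar in both sets, while the sums were not. Control members had 6183 to 70498 gene UMIs (median 23263, 3058446 in all) and Utx-deleted members 10302 to 81170 (median 25277, 556404 in all). Mitochondrial UMIs made up a median of 2.52% and 2.55% in members, above the 0.726% and 0.674% of all kept barcodes. Whole libraries held 122130256 and 129736034 gene UMIs in 7827 and 7883 barcodes; 349 and 214 barcodes failed the filter on genes or mitochondrial UMIs, and 380 and 699 with both hashtags were left out. The libraries had 17 barcode sequences in common, carried by 2 control members and 1 Utx-deleted member. Kdm6a, the targeted gene, was at 181 CPM and 198 CPM in members (log2 ratio 0.14, interval -0.18 to 0.43). Counts from the 3-prime end of a transcript can stay in place when an inner exon is deleted, so this gene does not check the label.

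Car1-dominant cells were several-fold rarer in the Utx-deleted library. They made up 1.58% of kept barcodes in the control library (interval 1.30 to 1.90%) and 0.273% in the other (interval 0.164 to 0.425%), which is 5.79-fold lower (interval 3.54 to 9.97). Hashtag 1 gave 1.63% (55 of 3375) against 0.184% (6 of 3256), 8.84-fold lower (interval 3.81 to 25.1). Hashtag 2 gave 1.52% (56 of 3674) against 0.354% (13 of 3674), 4.31-fold lower (interval 2.33 to 8.59). The libraries' intervals did not overlap for either hashtag, whereas those of the hashtags inside a library did. These intervals count cells, so the contrast does not measure the spread between animals or between library preparations. Over the barcodes under the 1% neutrophil limit, a denominator that leaves out neutrophils, the share was 6.56% (112 of 1708) against 1.22% (19 of 1558), 5.38-fold lower (interval 3.29 to 9.26).

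**Figure D1:**
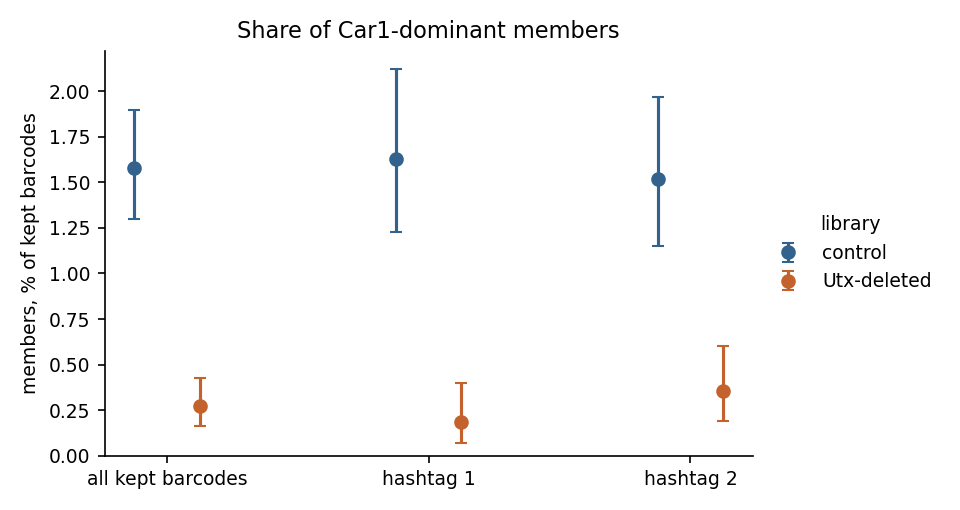
Members as a percentage of kept barcodes (vertical axis), with 1 colour for control and 1 for the library labelled Utx deleted, for all kept barcodes and for each hashtag. Points are shares and bars are exact 95% binomial intervals; control shares lie between 1.52% and 1.63%, and those of the Utx-deleted library between 0.184% and 0.354%.

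Besides the Car1 limit, the neutrophil clause shaped the membership. It left out 7 control and 3 Utx-deleted barcodes with 5 or more Car1 UMIs, whose neutrophil share was 4.70 to 17.2% and 6.13 to 19.2%, with Klf1 in 7 and 2 of them. With these barcodes the shares were 1.68% (119) and 0.316% (22), 5.31-fold lower (interval 3.35 to 8.79). The Pf4 and basophil clauses removed 0 barcodes. Just outside the limit, at 3 or 4 Car1 UMIs, lay 9 control barcodes and 1 of the Utx-deleted library, with Klf1 detected in 7 and 0 of them. Just inside, at 5 or 6 UMIs, lay 5 control members and 1 Utx-deleted member, with Klf1 in 5 and 0.

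Car1 itself ranged from 5 to 305 UMIs per control member, with a median of 36.5, and from 5 to 483 in the Utx-deleted library, with a median of 28. In the Utx-deleted library 15 members had 5 to 40 UMIs, 4 had 271 to 483, and 0 lay between. In the control library 48 of 112 members lay between those values. Members with 50 or more Car1 UMIs were 43 of 112 in the control library (38.4%, interval 29.4 to 48.1%) and 4 of 19 in the other (21.1%, interval 6.05 to 45.6%). As a share of kept barcodes, those with 50 or more were 10.6-fold lower (0.606% against 0.0574%, interval of the ratio 3.84 to 40.5) and those with fewer were 4.52-fold lower (0.972% against 0.215%, interval 2.56 to 8.50). These intervals overlap, so the counts do not separate the Car1-high from the Car1-low ratio. The limit of 50 UMIs was set after the values were seen.

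**Figure D2:**
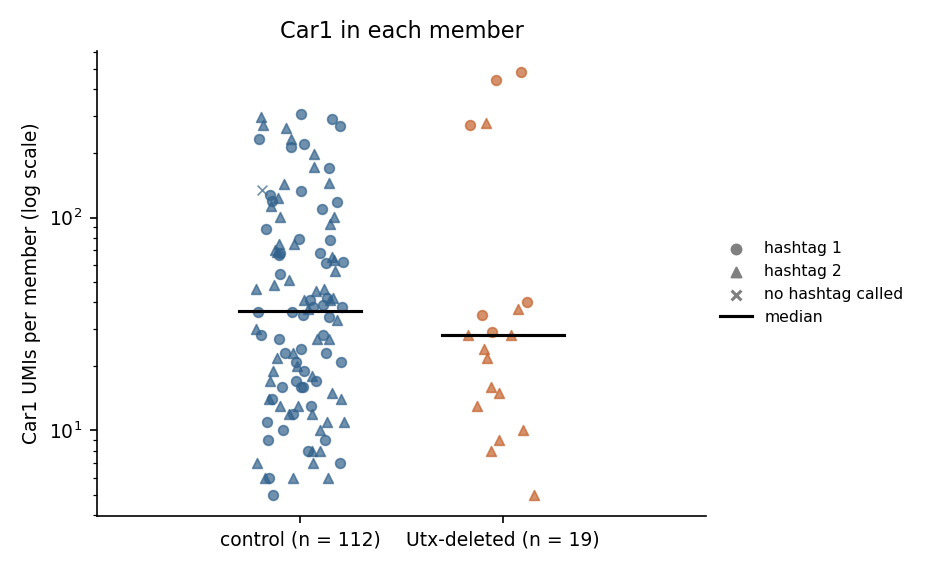
Car1 UMIs in each member (vertical axis, log scale) for the 112 control members and the 19 members of the library labelled Utx deleted; symbols give the hashtag and lines the medians. The Utx-deleted library has 15 members at 5 to 40 UMIs, 4 at 271 to 483 and 0 between, where 48 control members lie.

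Expression was compared on UMIs summed over members, as CPM, with 1 UMI added to each sum for the log2 ratio of the Utx-deleted library over control. A gene counts as past 2-fold here if it had 50 UMIs or more in the libraries together. Of 7830 such genes, 94 (1.20%) were past 2-fold higher and 264 (3.37%) past 2-fold lower; the median over 9628 genes with at least 20 UMIs was -0.0415. Requiring also that the counting interval leaves out 0 gave 1.16% (91 genes) and 3.14% (246 genes). These percentages are the background for the count in each gene list. With 5 UMIs added to each sum instead of 1, 180 genes were past 2-fold higher and 56 lower, so the balance of directions depends on the added count for low genes. Of the 358 genes past 2-fold, 334 met 2 conditions together. The sign was the same for both hashtags, and no member held over 50% of the UMIs in the library where the gene was higher. The ratio over all members is built from the same cells, so this agreement is no separate support. Inside the control library, hashtag 2 over hashtag 1 put 37 genes past 2-fold higher and 14 lower of 7438. Inside the Utx-deleted library, with 13 and 6 cells, the same comparison put 208 higher and 166 lower of 2151. Because the few cells of that library differ that much among themselves, the number of cells that carry a gene is given for many of the genes below. In summed cells, fewer cells with a transcript and less of it per cell cannot be told apart.

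Erythroid transcription factor genes stayed within 2-fold. Of 16 listed, 0 were past it in either direction, 11 were below 0 and 5 above, and the median log2 ratio was -0.156. Gata1 had 0 to 13 UMIs per control member (median 3) and 0 to 18 in the Utx-deleted library (median 2). Its summed level was 119 CPM and 120 CPM (log2 ratio 0.04, interval -0.38 to 0.40). Klf1 had 0 to 24 UMIs per control member (median 2) and 0 to 12 in the Utx-deleted library (median 2). Its summed level was 129 CPM and 75.5 CPM (log2 ratio -0.74, interval -1.27 to -0.31), with -0.59 for hashtag 1 and -0.78 for hashtag 2. The per-cell ranges of both genes overlapped widely between the libraries.

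Partners of GATA1 did not all lie on the same side. Tal1, whose product binds DNA together with GATA1, was at 127 CPM and 185 CPM (log2 ratio 0.56, interval 0.22 to 0.87), in 104 of 112 and 19 of 19 members. Lmo2 and Ldb1, which encode bridging proteins of the same complex, were lower: Lmo2 was at 493 CPM and 318 CPM (log2 ratio -0.62, interval -0.86 to -0.41), and Ldb1 had a log2 ratio of -0.67 (interval -1.20 to -0.24). Zfpm1, the gene for the GATA1 cofactor FOG1, was at -0.14 (interval -0.48 to 0.17). Myb, a factor of proliferating progenitors, was at 1077 CPM and 951 CPM. Gata2 had 0 to 25 UMIs per control member (median 5.50) and 1 to 30 in the Utx-deleted library (median 7), at 234 CPM and 324 CPM in all (log2 ratio 0.47, interval 0.22 to 0.70). So Gata2 and Tal1 were somewhat higher per UMI in the Utx-deleted members, and Klf1, Lmo2 and Ldb1 lower, each by less than 2-fold.

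Genes of the red cell membrane and blood groups held the most genes past 2-fold among the erythroid lists. Of 19 listed, 12 had enough UMIs; 5 were past 2-fold lower (among them Aqp1, Kel, Rhd and Tspan33), 0 higher, and 7 lay within 2-fold. The list median was -0.503, with -0.142 for hashtag 1 and -0.964 for hashtag 2. Kel encodes the Kell blood group protein. It had 0 to 13 UMIs per control member (median 2), in 78 of 112, and 0 to 7 in the Utx-deleted library (median 0), in 4 of 19. Its level was 86.6 CPM and 19.8 CPM (log2 ratio -2.01, interval -3.15 to -1.27), with -1.11 for hashtag 1 and -3.14 for hashtag 2. After thinning to 5000 UMIs, Kel was seen in 39.3% of control members (interval 30.2 to 49.0%) and 5.26% of Utx-deleted members (interval 0.133 to 26.0%), against 0.0623% and 0% in neutrophil-rich cells. The intervals of the members did not overlap.

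Aqp1 differed by hashtag and by Car1 level. It had 0 to 19 UMIs per control member (median 4) and 0 to 15 in the Utx-deleted library (median 1), at 210 CPM and 95.3 CPM in all (log2 ratio -1.12, interval -1.57 to -0.73). The ratio was -0.14 for hashtag 1 and -2.62 for hashtag 2. Of the 6 Utx-deleted members with hashtag 1, 3 had 50 or more Car1 UMIs, and they held 37 of the 43 Aqp1 UMIs, 41 of the 41 Ermap UMIs and 556 of the 575 Car2 UMIs of that hashtag; of the 13 with hashtag 2, 1 had 50 or more. Most UMIs of these 3 genes in Utx-deleted members of hashtag 1 thus lay in 3 cells. Aqp1 differed by hashtag in members with under 50 Car1 UMIs as well. There it had 6 UMIs over 3 Utx-deleted cells of hashtag 1 and 7 over 12 of hashtag 2. Control cells had 126 over 34 and 136 over 35. Why the hashtags differ was not tested. Tspan33, a tetraspanin gene, was detected in 74 and 3 members (log2 ratio -1.44, interval -2.59 to -0.68). Rhd, the Rh blood group gene, was detected in 38 control members and in 1 Utx-deleted member, whose 8 UMIs gave the log2 ratio of -1.09 (interval -2.49 to -0.21). Without members over 50000 UMIs it had 59 UMIs in 26 control members and 0 in the Utx-deleted library, at least 4.16-fold lower against a floor of 3 counts over the group. Epb41, for the cytoskeletal protein 4.1, was detected in 102 and 18 members at a log2 ratio of 0.09 (interval -0.31 to 0.44).

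Early erythroid progenitor genes divided. Of 20 listed and 17 with enough UMIs, 3 were past 2-fold lower (Ermap, Hemgn and Tspo2), 1 higher (Mt2) and 13 within 2-fold; the list median was -0.170. Ermap, an erythroid membrane protein gene, had 0 to 40 UMIs per control member (median 0) and 0 to 24 in the Utx-deleted library (median 0), in 55 and 5 cells, at 175 CPM and 82.7 CPM (log2 ratio -1.05, interval -1.55 to -0.65). Hemgn, the gene for the nuclear protein hemogen, was found in 75 and 6 members (log2 ratio -1.25, interval -2.34 to -0.51), and Tspo2, an erythroid relative of the mitochondrial translocator protein gene, in 68 and 7 (log2 ratio -1.32, interval -2.26 to -0.65). Ermap was at -0.15 for hashtag 1 and -3.02 for hashtag 2, and Hemgn at -0.22 and -2.31.

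Mt2, a metal-binding metallothionein gene, was the higher one, with 153 and 81 UMIs (log2 ratio 1.55, interval 1.13 to 1.94), in 31 control and 8 Utx-deleted members. The 4 Utx-deleted members with 50 or more Car1 UMIs held 72 of the 81 (log2 ratio there 2.16 (interval 1.71 to 2.57)). In the members with fewer it had 26 and 9 UMIs and a log2 ratio of 0.60 (interval -0.78 to 1.64). By hashtag the ratio was 2.51 for hashtag 1 and 0.37 for hashtag 2. Apoe, the apolipoprotein E gene, had 2 to 101 UMIs per control member (median 18) and 0 to 35 in the Utx-deleted library (median 10), at 797 CPM and 424 CPM (log2 ratio -0.90, interval -1.11 to -0.72). Car2, for carbonic anhydrase 2, was at 942 CPM and 1222 CPM (log2 ratio 0.38, interval 0.25 to 0.50), but its median per member was 12 UMIs in control cells and 5 in Utx-deleted cells, and the ratio was 1.11 for hashtag 1 and -1.13 for hashtag 2. Epor, the receptor gene for erythropoietin, was at 44.1 CPM and 39.5 CPM (log2 ratio -0.11, interval -0.88 to 0.50). Among the 12 genes of erythropoietin and Kit signalling, 7 had enough UMIs and 0 of these were past 2-fold in either direction.

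Heme synthesis genes were mostly within 2-fold. Of 14 listed and 11 with enough UMIs, 8 were within 2-fold and 3 past it on the lower side; the list median was -0.117, with 0.274 for hashtag 1 and -0.767 for hashtag 2. Alad, the gene of the enzyme after ALA synthase, was at 93.2 CPM and 37.7 CPM (log2 ratio -1.24, interval -2.02 to -0.66), in 87 and 8 members. Alas1, the housekeeping ALA synthase gene, was at -1.02 (interval -2.42 to -0.14) and Abcb10, a mitochondrial transporter gene, at -1.36 (interval -2.76 to -0.50). Glrx5, for an iron-sulphur cluster protein, had the most control UMIs of the list and a log2 ratio of -0.12 (interval -0.40 to 0.14). Of 10 iron handling genes with enough UMIs, 0 were past 2-fold in either direction and the median was -0.0374; Tfrc, the transferrin receptor gene, was at 72.3 CPM and 77.3 CPM.

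Erythroid genes were also compared at each Car1 level. Among members with under 50 Car1 UMIs (69 control and 15 Utx-deleted, with median depths of 17149 and 19805 UMIs), Aqp1 was at 186 CPM and 37.6 CPM (log2 ratio -2.20, interval -3.23 to -1.50), in 60 and 7 cells. Kel was at 78.7 CPM and 8.69 CPM (log2 ratio -2.78, interval -5.48 to -1.60), in 42 and 2 cells. Ermap was found in 19 and 1 of these members (106 and 1 UMIs), Tspan33 in 36 and 1 (74 and 1 UMIs) and Hemgn in 38 and 2 (79 and 2 UMIs). Klf1 was at 114 CPM and 57.9 CPM (log2 ratio -0.92, interval -1.73 to -0.30), while Gata1 was at -0.20 (interval -0.77 to 0.27) and Gata2 at 0.39 (interval 0.11 to 0.64). Some other membrane and blood group genes were level or higher in these cells. Gypc, for a red cell membrane protein, was at 0.70 (interval 0.01 to 1.30), in 39 and 12 cells, and Icam4, for an adhesion protein, at 0.20 (interval -0.62 to 0.87), in 44 and 11 cells. Xk was at 0.05 (interval -0.94 to 0.81) and Epb41 at 0.04 (interval -0.46 to 0.48).

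Among members with 50 or more Car1 UMIs (43 control and 4 Utx-deleted), some of these genes lay closer together and others did not. Aqp1 was at 231 CPM and 190 CPM (log2 ratio -0.25, interval -0.79 to 0.19), Ermap at 260 CPM and 213 CPM, Hemgn at 54.6 CPM and 47.4 CPM and Klf1 at 142 CPM and 104 CPM (log2 ratio -0.39, interval -1.15 to 0.19). Kel was at 93.4 CPM and 37.9 CPM (log2 ratio -1.14, interval -2.54 to -0.29), in 36 and 2 cells. Car2 was at 1204 CPM and 2828 CPM here (log2 ratio 1.23), against 635 CPM and 240 CPM in the Car1-low members (log2 ratio -1.39). Gata1 was at 0.36 (interval -0.32 to 0.89) and Gata2 at -0.31 (interval -1.07 to 0.27), each with the opposite sign to the Car1-low members and an interval that includes 0. Icam4 was far lower here, with 109 and 2 UMIs in 36 and 2 cells (log2 ratio -2.23 (interval -5.87 to -0.92)), and Gypc was at -0.81 (interval -2.71 to 0.23). These ratios rest on 4 cells, and the difference between the Car1 levels was not tested.

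Those 4 cells were not alike. The deepest, with 81170 gene UMIs and hashtag 1, held 271 Car1, 288 Car2, 24 Ermap, 12 Klf1 and 18 Gata1 UMIs. It alone of all 19 members had Rhag (12 UMIs), Rhd (8 UMIs), Sptb (11 UMIs), Add2 (8 UMIs) and Hbb-bt (5 UMIs), genes of the Rh complex, the membrane skeleton and beta globin. The other 3, with 36223 to 49552 gene UMIs and 279 to 483 Car1 UMIs, had 0 UMIs of each of these 5 genes. They held 4 to 10 UMIs of Ermap and 3 to 13 of Aqp1. Transcripts of those 5 genes in the Utx-deleted members thus came from a single barcode, the deepest of all members.

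**Figure D3:**
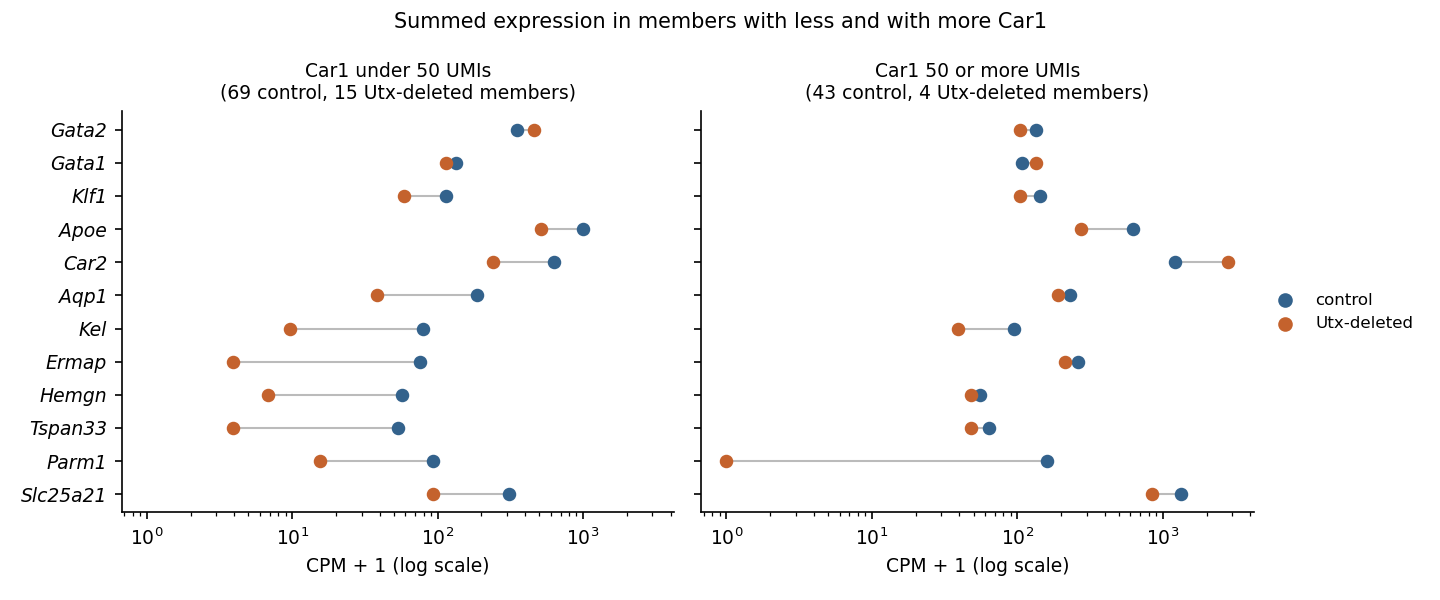
Summed expression in members (CPM plus 1, log scale) of 12 genes in the control library (blue) and the library labelled Utx deleted (orange), for members with under 50 Car1 UMIs (left) and with 50 or more (right). Aqp1, Kel, Ermap, Hemgn and Tspan33 are wide apart on the left and nearer on the right.

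Genes outside the erythroid lists were named by a rule on size, on sign in both hashtags and on no single member holding most of the UMIs. Of the 12 higher genes it gave, Lmo4, the gene of a LIM-only transcriptional cofactor, had 0 to 29 UMIs per control member (median 1) and 0 to 66 in the Utx-deleted library (median 2), in 59 and 16 cells. Its level was 65.7 CPM and 250 CPM (log2 ratio 1.93, interval 1.60 to 2.25). Hmga2, which encodes an architectural chromatin protein of fetal and growing cells, was at 35.3 CPM and 142 CPM (log2 ratio 2.01, interval 1.57 to 2.44), in 51 and 16 members. The long transcript 2610035D17Rik had the highest ratio of the 12, at 12.8 CPM and 95.3 CPM (log2 ratio 2.89, interval 2.28 to 3.54), in 12 of 112 and 15 of 19 members.

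Vim, the gene for the intermediate filament vimentin, had 0 to 27 UMIs per control member (median 8) and 0 to 50 in the Utx-deleted library (median 20). It was at 302 CPM and 740 CPM (log2 ratio 1.30, interval 1.12 to 1.46), with 0.47 for hashtag 1 and 1.60 for hashtag 2. In members with 50 or more Car1 UMIs its log2 ratio was 0.10 (interval -0.49 to 0.57), and in those with fewer it was 1.22 (interval 1.03 to 1.40). Ikzf2, for the zinc finger factor Helios, was at 266 CPM and 622 CPM (log2 ratio 1.23, interval 1.04 to 1.41), in 94 and 18 members. Ifitm1, for an interferon-induced membrane protein, was at 382 CPM and 843 CPM (log2 ratio 1.15, interval 0.99 to 1.30), in 72 of 112 and 10 of 19 members. The remaining higher genes, given as log2 ratios, were Auts2 (1.45), Psrc1 (1.97), 2610307P16Rik (1.36), Kif26b (1.39) and Mc5r (1.40), together with Mt2. Some of these 12 did not hold in the members with 50 or more Car1 UMIs, where the Utx-deleted library has 4 cells. There Ifitm1 had 134 UMIs in 23 of 43 control cells, Auts2 57 in 12 and 2610307P16Rik 35 in 9. All 3 had 0 UMIs in the 4 Utx-deleted cells. By a floor of 3 counts over the group, they were 5.72-fold, 2.43-fold and 1.49-fold lower or more. That floor counts UMIs and not cells. With 4 cells, 0 UMIs of a gene that many control cells also lack does not show a lower level. Mc5r was at -0.53 (interval -3.24 to 0.73). In the members with fewer Car1 UMIs these 4 had log2 ratios of 0.89, 1.26, 1.07 and 1.54.

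Of the 12 lower genes, 5 had no UMI in any Utx-deleted member. Over all 7830 genes with enough UMIs, 9 had none in that library and 0 had none in the control members. Most UMIs came from the control members, and these 5 genes reached the minimum of 50 UMIs through the control library alone. Their absence from the other library is therefore no separate support. Nrgn, the gene of the calmodulin-binding protein neurogranin, had 177 UMIs in 59 control members (57.9 CPM) and 0 in the others, at least 10.7-fold lower against the floor of 3 counts over the group. Col5a1, a fibrillar collagen chain gene, had 120 UMIs in 40 control members, at least 7.28-fold lower. Nefh, a neurofilament gene, had 81 UMIs in 43 members (at least 4.91-fold lower), Itgb7, an integrin chain gene, 78 UMIs in 50 members (at least 4.73-fold lower), and Emb 70 UMIs in 10 members (at least 4.24-fold lower by UMIs). Emb was thus in only 8.93% of control members, 1 of which held 25 UMIs, and was at 360 CPM and 335 CPM in other progenitors. With so few carrying cells, its absence from 19 members does not show a lower level. Parm1 had 392 UMIs in 64 control members and 5 UMIs in 3 of the others (128 CPM and 8.99 CPM, log2 ratio -3.57, interval -5.47 to -2.60). Zfhx3 was in 65 and 4 members (log2 ratio -2.54) and Cyyr1 in 63 and 3 (log2 ratio -2.22).

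The other 4 lower genes of the rule were the azurophil granule genes, and most of their control UMIs lay in few cells. Over all members Mpo (myeloperoxidase) was at 176 CPM and 32.4 CPM, Elane (neutrophil elastase) at 184 CPM and 23.4 CPM, Prtn3 at 226 CPM and 16.2 CPM and Ctsg at 186 CPM and 16.2 CPM. The highest control member held 170 UMIs of Mpo and 255 of Elane, against 3 and 3 in the Utx-deleted library, and a UMI of Mpo was found in 52 of 112 and 11 of 19 members. Without the 4 control members that held 10 or more UMIs of these genes together, Elane was at a log2 ratio of 0.34 (interval -0.74 to 1.14) and Mpo at 0.61 (interval -0.29 to 1.33), so both changed sign. Prtn3 stayed below 0 at -0.74 (interval -2.06 to 0.11), with 85 and 9 UMIs, as did Ctsg at -0.55 (interval -1.86 to 0.32), with 74 and 9 UMIs. These 4 intervals include 0. The median of the azurophil list was 0.22, where it had been -2.62. Of those 4 members, 2 also had 2 or more Klf1 UMIs.

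In the megakaryocyte, basophil and mast cell, stem cell, and T and NK cell lists, 6 of 21 genes with enough UMIs were past 2-fold. Of 24 megakaryocyte genes, 7 had enough UMIs, 6 were within 2-fold and Cd9, a tetraspanin gene, was lower (74.9 CPM and 25.2 CPM, log2 ratio -1.48, interval -2.47 to -0.80), in 84 and 6 members. Itga2b, the gene of CD41, was at -0.38 (interval -1.55 to 0.42). Among 12 basophil and mast cell genes 3 had enough UMIs, and of these Ms4a2 was past 2-fold higher (log2 ratio 2.64) and the protease gene Cpa3 lower (log2 ratio -1.15 (interval -2.24 to -0.42)). Cpa3 was found in 38 of 112 and 7 of 19 members, and the highest control member held 42 of its 158 UMIs. Without the members with 5 or more UMIs of Ms4a2, Fcer1a and Cpa3 together (9 control and 2 Utx-deleted), Cpa3 was at -0.14 and Ms4a2 at 0.31. Ms4a2 was found in 16 control and 4 Utx-deleted members, and 2 of the latter had 2 or more UMIs of it, of which 1 also had 2 or more Klf1 UMIs. Of 16 stem and multipotent cell genes, 10 had enough UMIs, and Hoxa9 (log2 ratio 1.04 (interval 0.20 to 1.74)) and Rbpms (log2 ratio 1.27 (interval 0.48 to 1.95)) were past 2-fold higher, in 43 and 9 and in 32 and 11 members. Procr and Ly6a, markers of stem cells, had 0 UMIs in both libraries. Nkg7, a cytotoxic granule gene and the only one of the T and NK cell list with enough UMIs, was at 131 CPM and 34.1 CPM (log2 ratio -1.87, interval -2.69 to -1.28), in 94 and 10 members.

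Most DNA replication genes lay below 0 but within 2-fold. Of 20 G1/S genes with enough UMIs, 17 were below 0 and 3 above, with 1 past 2-fold lower (Uhrf1, log2 ratio -1.22 (interval -2.01 to -0.62)) and 1 higher (Ccne1, log2 ratio 1.20 (interval 0.44 to 1.86)). The list median was -0.572, with 0.0165 for hashtag 1 and -1.20 for hashtag 2, which in the Utx-deleted library hold 6 and 13 members; the difference between hashtags was not tested. Pcna, the sliding clamp of replication, was at 227 CPM and 131 CPM (log2 ratio -0.77, interval -1.16 to -0.44). Ccne1 was found in 28 control and 3 Utx-deleted members, and the deepest cell held 15 of its 25 UMIs in that library. Its direction was opposite in hashtag 2 (log2 ratio -1.31, 34 and 2 UMIs) and in members with under 50 Car1 UMIs, where it had 19 and 0 UMIs, at least 1.55-fold lower against a floor of 3 counts over the group. Those 19 UMIs lay in 9 of 69 control members, and the floor does not cover differences between cells. Of 20 G2/M genes 0 were past 2-fold in either direction, 15 were above 0, and the median was 0.259; Mki67, a proliferation gene, was at 496 CPM and 555 CPM.

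The remaining lists are given by count. Of 7 specific granule and S100 genes with enough UMIs, 0 were past 2-fold (median 0.403), and of 4 dendritic cell genes also 0 (median 0.217). The monocyte list had 1 gene with enough UMIs, Ly6c2, which was lower (log2 ratio -1.75, interval -3.65 to -0.73, in 20 and 5 members). A single control member held 56 of its 110 UMIs. Without the 4 azurophil-rich members Ly6c2 was at 0.55 (interval -1.41 to 1.82), and at a Car1 limit of 5 per 10000 UMIs it was at 0.79, so its direction turned in both. The B-cell, macrophage and globin lists had 0. Of 6 interferon-stimulated genes Isg15 was past 2-fold lower (log2 ratio -1.57, interval -5.21 to -0.19; list median -0.0709). It had 48 UMIs in 16 control members, 25 of them in 1 cell, and 2 UMIs in 1 Utx-deleted member. Its direction was opposite in hashtag 1 alone (0.57) and after thinning to 5000 UMIs (0.75). Of 8 immediate early and stress genes Egr1 was higher and the heat shock gene Hspa1b lower, though at 0.01 in hashtag 1 (list median -0.365). Of 4 Hox genes and cofactors Hoxa9 was higher (list median 0.408), and of 3 cyclin-dependent kinase inhibitor genes 0 were past 2-fold (list median 0.430).

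Chromatin genes were close. Of 10 genes of the UTX, MLL3 and MLL4 complexes with enough UMIs, 0 were past 2-fold in either direction and the median was -0.0950. Of 9 genes of Polycomb repressive complex 2, which writes the mark that UTX removes, 0 were past 2-fold and the median was 0.0150. Ezh2, its methyltransferase gene, was at 355 CPM and 358 CPM.

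Surface tags gave another readout of the same cells. Members had a median of 994 and 840 tag UMIs, other progenitors 1597 and 1256, neutrophil-rich barcodes 2125 and 2109, and all kept barcodes 1939 and 1844, so shares of tag UMIs and medians are both given. CD117, the Kit protein, had 33 to 557 UMIs per control member (median 145) and 26 to 266 in the Utx-deleted library (median 102), and its share of tag UMIs was 17.2% and 14.2%. CD48, carried by most committed progenitors, held 61.5% and 64.9% (medians 618 and 531). Sca1, a marker of stem cells, was low in both, with medians of 9 and 5. CD16/32, the Fc receptors of granulocyte-macrophage progenitors, had medians of 41 and 25, against 213 and 250 in the other progenitors. Pf4-dominant cells, with 5 or more Pf4 UMIs, more Pf4 than Car1 and otherwise the same filters, had CD16/32 medians of 44 and 33.5, close to those of the members. Lower Sca1 and CD48 medians in the Utx-deleted library were not particular to the members. Sca1 had medians of 8 and 4 in other progenitors and 11 and 6 in Pf4-dominant cells. CD48 had 898 and 644, and 410 and 201. For CD117 the medians were 168 and 166 in other progenitors and 167 and 116 in Pf4-dominant cells.

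CD150, carried by stem cells and by early megakaryocyte-erythroid progenitors, divided the members. Its counts ran from 0 to 459 in control members (median 58.5) and from 0 to 356 in Utx-deleted members (median 31), against medians of 3 and 1 in the other progenitors. Pf4-dominant cells had higher CD150 medians than the members, 107 and 48.5. In the control library 61 of 112 members had 50 or more CD150 UMIs (54.5%, interval 44.8 to 63.9%) and 27 had under 20. In the Utx-deleted library 8 of 19 had 50 or more (42.1%, interval 20.3 to 66.5%) and 9 had under 20. Those intervals overlap. Of the 8, 7 carried hashtag 2. The share of CD150 in summed tag UMIs was higher in the Utx-deleted library (log2 ratio 0.54, interval 0.46 to 0.62) although its median was lower (log2 ratio -0.92), with shares at -0.80 for hashtag 1 and 0.95 for hashtag 2. As a centred log-ratio per cell it was -0.18, so its direction depends on the scale. CD41 showed the same opposition, with medians of 7 and 5 and a share at 0.73.

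**Figure D4:**
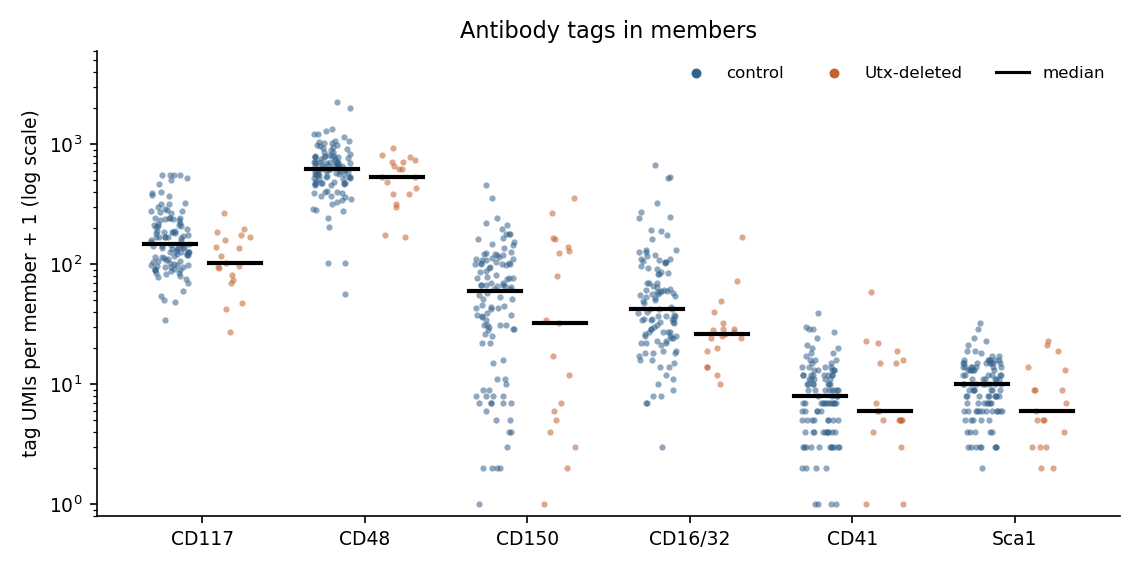
Antibody tag UMIs in each member (UMIs plus 1, log scale) for 6 surface tags, with control members in blue, members of the library labelled Utx deleted in orange and lines at the medians. The ranges of the libraries overlap for every tag shown, and CD150 spreads from 0 to 459 and 356 UMIs.

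Genes that followed Car1 most closely were described over the 3266 barcodes under the neutrophil limit of both libraries, by Spearman's correlation among 9884 genes; these barcodes share libraries and depth, and most hold no Car1. The closest were Gm15915 (0.64), Zg16 (0.61), Trib2 (0.61), Atp1b2 (0.59), Tspo2 (0.58), Slc25a21 (0.57), Kel (0.57), Aqp1 (0.56), Klf1 (0.55) and Ces2g (0.54). Slc25a21, a mitochondrial carrier gene, was at 866 CPM and 376 CPM in members (log2 ratio -1.20), in 63 and 9 cells.

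Pf4-dominant barcodes, the megakaryocyte counterpart by the same filters, numbered 93 and 48, and other progenitors 1503 and 1491. Klf1 was at 6.95 CPM and 0.558 CPM in the Pf4-dominant cells and at 2.91 CPM and 0.690 CPM in the other progenitors. Aqp1 was at 42.5 CPM and 11.2 CPM in the Pf4-dominant cells. Apoe was lower by value in each set, with log2 ratios of -0.90 in members, -3.18 in Pf4-dominant cells and -3.73 in other progenitors. Vim had log2 ratios of 1.30, -1.64 and -0.22 in that order, Ifitm1 1.15, -1.23 and -2.33, and 2610035D17Rik 2.89, 2.11 and 1.63. So Vim and Ifitm1 lay above 0 in members and below 0 in both other sets. Depths differ between the sets, and the differences between these ratios were not tested.

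Car1 (ENSMUSG00000027556) lies on chromosome 3 from 14766216 to 14808368. Klf1 (ENSMUSG00000054191) lies on chromosome 8 from 84901928 to 84905291. Gata1 (ENSMUSG00000031162) lies on chromosome X from 7959260 to 7978071. Aqp1 (ENSMUSG00000004655) lies on chromosome 6 from 55336432 to 55348555. Kel (ENSMUSG00000029866) lies on chromosome 6 from 41686330 to 41704339. These positions are from GENCODE M21 on build GRCm38, where all 5 are protein-coding genes; UMIs were counted per gene and not by exon.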

How the data were processed

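The authors deposited raw counts of UMIs per gene and antibody tag for 2 libraries (10x Genomics 3-prime version 3.1 with feature barcodes, per the labels; Cell Ranger 7.1.0 and build mm10, per the submitters' processing notes). The cell-calling rule and annotation are not given in the sources used here. The files hold 32285 genes and 15 tags, and 99.8% of gene IDs were found in GENCODE M21.

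Counts were summed over members with Python 3.11.15, scipy 1.17.1 and pandas 2.3.3; edgeR 4.0.16 gave the TMM scaling alternative. Intervals are 95% exact binomial for shares (Clopper-Pearson) and exact binomial splits of 2 sums for ratios; they cover counting error only. Adding 1 UMI to sums of unequal size draws low ratios upward. Barcodes with both hashtags were left out as doublets. Scrublet (scanpy 1.11.5) marked 1 and 0 barcodes and had not worked, so leaving out its top 6% served as an alternative; doublet removal is incomplete. Counting and ratios were tested on simulated data.

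Named genes were the 12 higher and 12 lower past 2-fold with the interval bound nearest 0 farthest from 0, the same sign for both hashtags and no member with over 50% of the UMIs, plus Kdm6a, the markers, list genes past 2-fold and the 2 with the most UMIs per list; other genes named (among them Tal1, Lmo2, Ldb1, Gata2, Apoe, Slc4a1, Gypc, Icam4 and Xk) were chosen after their values were seen. Members and the 25 lists were chosen with earlier results of these data known. Alternatives changed filters, Car1 limit, doublets, hashtags, scaling, minimum UMIs, fold, added UMIs, thinning and tag scaling. Limits of 50 Car1 UMIs, of 20 and 50 CD150 UMIs, and the subsets without marker-rich or deep members were set after the data were seen. Not every gene of a list is reported here.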

Additional observations from a re-analysis of the deposited data

How the results depend on the processing

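The share of members stayed lower in the Utx-deleted library under every alternative run for it, for example 1.38% against 0.258% without members over 50000 UMIs, 1.70% against 0.287% at a Car1 limit of 3 UMIs and 1.29% against 0.180% when cells were thinned to 5000 UMIs first. The counts of genes past 2-fold, 94 higher and 264 lower, moved to 53 and 116 after thinning to 5000 UMIs (2707 genes tested), 294 and 502 at a minimum of 20 UMIs, 18 and 51 at 200 UMIs, 471 and 856 at 1.5-fold, and 180 and 56 with 5 UMIs added, which adds relatively more to the smaller sum. Under TMM they were 118 and 227. Without thinning, Klf1 was seen in 83.0% and 68.4% of members and Kel in 69.6% of control members. Among values past 2-fold, signs turned for Elane (0.01), Ly6c2 (0.79) and the monocyte list (0.79) at Car1 of 5 per 10000 UMIs; for Isg15 (0.57) and Hspa1b (0.01) in hashtag 1 alone; for Ccne1 in hashtag 2 alone (-1.31) and under 50 Car1 UMIs (-2.29 with 1 UMI added to 19 and 0 UMIs, or at least 1.55-fold lower against a floor of 3 counts over the group); for Isg15 (0.75) after thinning; for the CD135 tag (0.14) as a centred log-ratio; and without members rich in azurophil genes for Elane (0.34), Mpo (0.61), Ly6c2 (0.55), the azurophil list (0.22) and the monocyte list (0.55). The cause of these turns was not tested, except that the last subset leaves out the cells that hold those UMIs. Of 1734 single values under alternatives, 77 changed sign: the 14 above, which were past 2-fold, and 63 that were not. The latter include the CD150 share (0.54) at -0.80 and the CD41 share (0.73) at -0.73 in hashtag 1 alone, and the CD150 tag at -0.18 as a centred log-ratio. Outside these values, Car2 (0.38) was at -1.13 in hashtag 2. No paired analysis was possible because each group is 1 library. With 19 cells and 556404 UMIs, a gene at 0 may stand at up to 5.39 CPM.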
